A study of Bos taurus and Bubalus bubalis with 9 samples.

Results

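ACSS1 and ACSS2 are the genes of the acetyl-CoA synthetases, which join acetate to coenzyme A. They were chosen by name, with earlier results of these data known. Each has 1 named transcript in the buffalo mRNA table, where 7211 of 19917 transcripts could be given a name. Their symbols also stand in 1 of 10701 rows of the buffalo table of circular RNAs (circRNAs) and in 3 of 18535 rows of the cattle circRNA table. The libraries used here came from the longissimus dorsi muscle of 3 Xinyang buffalo and from that muscle and the subcutaneous back fat of 3 Nanyang cattle. The labels do not say which muscle and fat libraries share an animal. The labels give the buffalo as low and the cattle as high in intramuscular fat (IMF). All 9 libraries came from fattened animals with weaning at 3 months and castration at 6 months, whose fattening began at 18 months and whose tissue was taken at 30 months, and both species had equivalent feed. The question of the study was which genes differ between species of low and high IMF. For ACSS1 and ACSS2 mRNA, only the 3 buffalo muscle libraries were used, so their mRNA was not compared between tissues or species here. The circRNA rows cover all 9 libraries.

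Ruminants take up much of their energy as acetate from fermentation in the rumen, and acetate is a main carbon source for the fatty acids made in their adipose tissue. Acetate enters a cell largely through monocarboxylate transporters and must be activated to acetyl-CoA before use. ACSS2 does so in the cytosol and nucleus, where acetyl-CoA serves fatty acid synthesis and protein acetylation. ACSS1 does so in the mitochondrial matrix, where acetyl-CoA enters the citric acid cycle.

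Before the results, the tissue labels were set against marker genes. Of 12 skeletal muscle markers, 8 had a named transcript in the buffalo mRNA table, and their summed level was 70268 to 86399 FPKM (fragment counts scaled by transcript length and by library size). The 2 transcripts named NEB were listed at 0, while NEB gave 655 to 749 junction reads in the circRNA table of the same libraries. All 9 adipocyte markers had a transcript, with a summed level of 134, 170 and 136 FPKM in buffalo muscle 1 to 3, of which LPL alone gave 92.0, 129 and 98.1. Buffalo muscle 1 stood apart in these markers, being the lowest library for 7 of the 9. In it ADIPOQ, a hormone of adipocytes, had 0.776 FPKM against 7.40 and 5.77 in buffalo muscle 2 and 3, and FABP4, their fatty acid carrier, had 3.97 against 8.20 and 7.99. PPARG and GPAM were highest there, and without LPL the summed level was 41.7, 40.4 and 37.6 FPKM in buffalo muscle 1 to 3. In cattle, circRNAs of the muscle markers had 913 to 1382 junction reads in muscle and 0 to 1 in fat, and those of the adipocyte markers had 3 to 7 in muscle and 19 to 43 in fat. In such bulk tissue, fewer cells of a type and less RNA per cell cannot be told apart, and the part of adipocytes within the muscle samples in the levels of ACSS1 and ACSS2 was not tested.

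ACSS2 had the higher FPKM of the members in buffalo muscle. ACSS2 (ENSBTAT00000017694, gene ENSBTAG00000013303, chromosome 13 of UMD3.1) had 48.6, 44.2 and 43.4 FPKM in buffalo muscle 1 to 3. ACSS1 (ENSBTAT00000005606, gene ENSBTAG00000004281, also on chromosome 13) had 9.28, 8.65 and 11.1 FPKM. Every ACSS2 value thus lay above every ACSS1 value, and ACSS1 was highest in buffalo muscle 3, where ACSS2 was lowest. FPKM is scaled by transcript length, but buffalo reads were mapped to the cattle build and each level is that of 1 named transcript, so a comparison between genes also carries how well each transcript was mapped and annotated, which was not tested.

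The FPKM of ACSS2 was 5.23, 5.11 and 3.90 times that of ACSS1 in buffalo muscle 1 to 3, a mean ratio of 4.75 ± 0.738 (SD, n = 3). As log2(FPKM + 1), the mean level was 5.53 ± 0.09 (SD, n = 3) for ACSS2 and 3.41 ± 0.17 (SD, n = 3) for ACSS1. The difference, ACSS2 minus ACSS1, was 2.12 ± 0.22 (SD, n = 3), which is larger than the spread of either gene. The direction was the same in 3 of 3 animals. The mean difference was 2.05 without buffalo muscle 1, the library that was lowest for 7 of the 9 adipocyte markers. An exact two-sided permutation test that flips the sign of each animal's difference gave p = 0.25, the smallest p that 3 pairs allow, so this test cannot pass a threshold of 0.05 with 3 animals. The depth behind a single FPKM value is unknown, because the mRNA table gives no read counts.

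ACSS2 also stood high among all transcripts of buffalo muscle. Its mean ranked 1692 of the 19917 listed transcripts, and 91.5% of them had a lower mean. ACSS1 ranked 5933, with 70.2% lower. Within single libraries, the share of transcripts below ACSS2 was 91.5%, 91.6% and 91.6%, and that below ACSS1 was 69.3%, 68.5% and 73.6%. The rank of ACSS2 thus moved less across the 3 buffaloes than that of ACSS1. Fewer transcripts lie within 1.5 times its mean FPKM (1282 against 2969), so the same change in level moves its rank less. On the log2(FPKM + 1) scale the SDs were closer, at 0.09 for ACSS2 and 0.17 for ACSS1. Many of the listed transcripts are at or near 0, which lifts both shares. Among the 12618 transcripts with a mean of at least 1 FPKM, 86.6% were below ACSS2 and 53.0% below ACSS1.

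**Figure D1:**
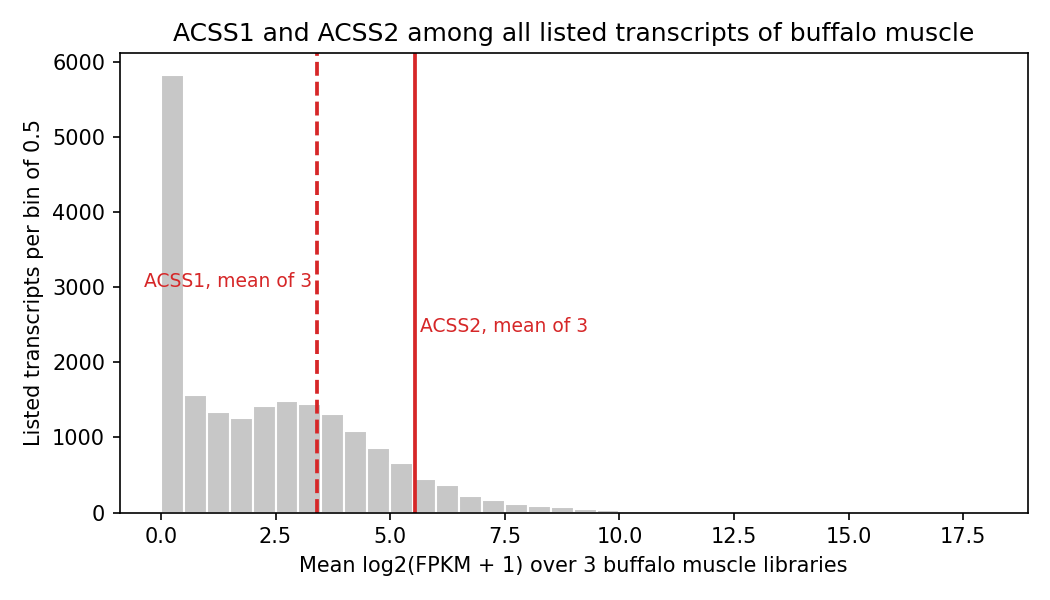
Distribution of the mean log2(FPKM + 1) of all 19917 listed transcripts over the 3 buffalo muscle libraries, in bins of 0.5 (bars, number of transcripts), with the means of ACSS1 (dashed line, 3.41) and ACSS2 (solid line, 5.53). ACSS2 lies in the upper tail, and ACSS1 lies above 53.0% of the transcripts with a mean of at least 1 FPKM.

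The animals differed little in ACSS2, and in ACSS1 about as much as in the median expressed transcript. The coefficient of variation of FPKM was 6.14% for ACSS2 and 13.3% for ACSS1. On the log2(FPKM + 1) scale, the median SD between the 3 animals was 0.19 over the 12618 transcripts with a mean of at least 1 FPKM. The SD of ACSS2 was below that median, and 16.1% of these transcripts had a smaller one. The SD of ACSS1 was close to it, with 45.0% smaller. These transcripts were not matched to either gene by level, and the part of level in these shares was not tested.

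The members were then placed beside 37 other genes of acetate uptake, acyl-CoA synthesis, lipogenesis, mitochondrial acetyl-CoA metabolism, NADPH supply and deacetylation. Of these, 23 had a named transcript in the buffalo mRNA table. The mean FPKM of 9 was above that of ACSS2, and for all 9 each value exceeded each ACSS2 value. The mean of 14 was below it, and for 12 of these each value lay under each ACSS2 value. ACSS1 had 16 of the 23 above it and 7 below it, and for all 7 each value lay under each ACSS1 value. These are levels in 1 tissue, given as a description with no test. Names came from circRNA rows and from the study's lists of mRNAs that differed between the species in muscle. The 23 genes are thus a selected part of the 37.

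Among the transporters, SLC16A1, which carries acetate, lactate and other monocarboxylates across the cell membrane, had 70.0, 70.7 and 60.3 FPKM and lay above ACSS2 in each library. SLC16A3, which is known for lactate export from glycolytic muscle, had 36.4, 34.3 and 47.5 FPKM. Its range overlapped that of ACSS2. SLC16A7, a high-affinity monocarboxylate transporter, had a mean of 1.10 ± 0.324 FPKM (SD, n = 3) and lay below both members.

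Of 8 other acyl-CoA synthetases, 6 had a named transcript. ACSL1, which activates long-chain fatty acids, was the only one of the 6 with a mean above that of ACSS2, at 151 ± 9.90 FPKM (SD, n = 3). ACSS3, the mitochondrial short-chain family member that favours propionate, had 6.18, 7.92 and 5.75 FPKM. Each of these values was below each ACSS1 value, so the order within the ACSS family in buffalo muscle was ACSS2, ACSS1, ACSS3 with no overlap between neighbours.

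The genes that use cytosolic acetyl-CoA for lipids were less complete, since only 4 of 11 had a named transcript. ACACB, the acetyl-CoA carboxylase whose malonyl-CoA restrains fatty acid entry into mitochondria, had 27.4, 54.5 and 48.3 FPKM. It was thus low in buffalo muscle 1, as were 7 of the 9 adipocyte markers, and their part in this was not tested. The range of ACACB enclosed that of ACSS2. ACACA, the carboxylase of fatty acid synthesis, had 5.40 ± 0.202 FPKM (SD, n = 3), and all its values lay below those of ACSS1. Elongase ELOVL6 was lower still, with 1.28 ± 0.158 FPKM (SD, n = 3). The citrate carrier SLC25A1, which exports citrate for cytosolic acetyl-CoA, had 10.1 ± 0.883 FPKM (SD, n = 3) and overlapped ACSS1.

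All 7 mitochondrial genes of acetyl-CoA supply and use that had a named transcript lay above ACSS2, with means from 64.1 FPKM for OXCT1, which activates ketone bodies, to 269 FPKM for PDHB, a subunit of pyruvate dehydrogenase. Citrate synthase CS, which takes up the acetyl-CoA made by ACSS1, had 205 ± 11.6 FPKM (SD, n = 3). The NADPH-producing enzymes IDH1 and PGD had means of 11.4 and 11.1 FPKM, and both overlapped ACSS1. SIRT1, a deacetylase known to activate ACSS2, had 6.61 ± 0.708 FPKM (SD, n = 3) and lay below both members.

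**Figure D2:**
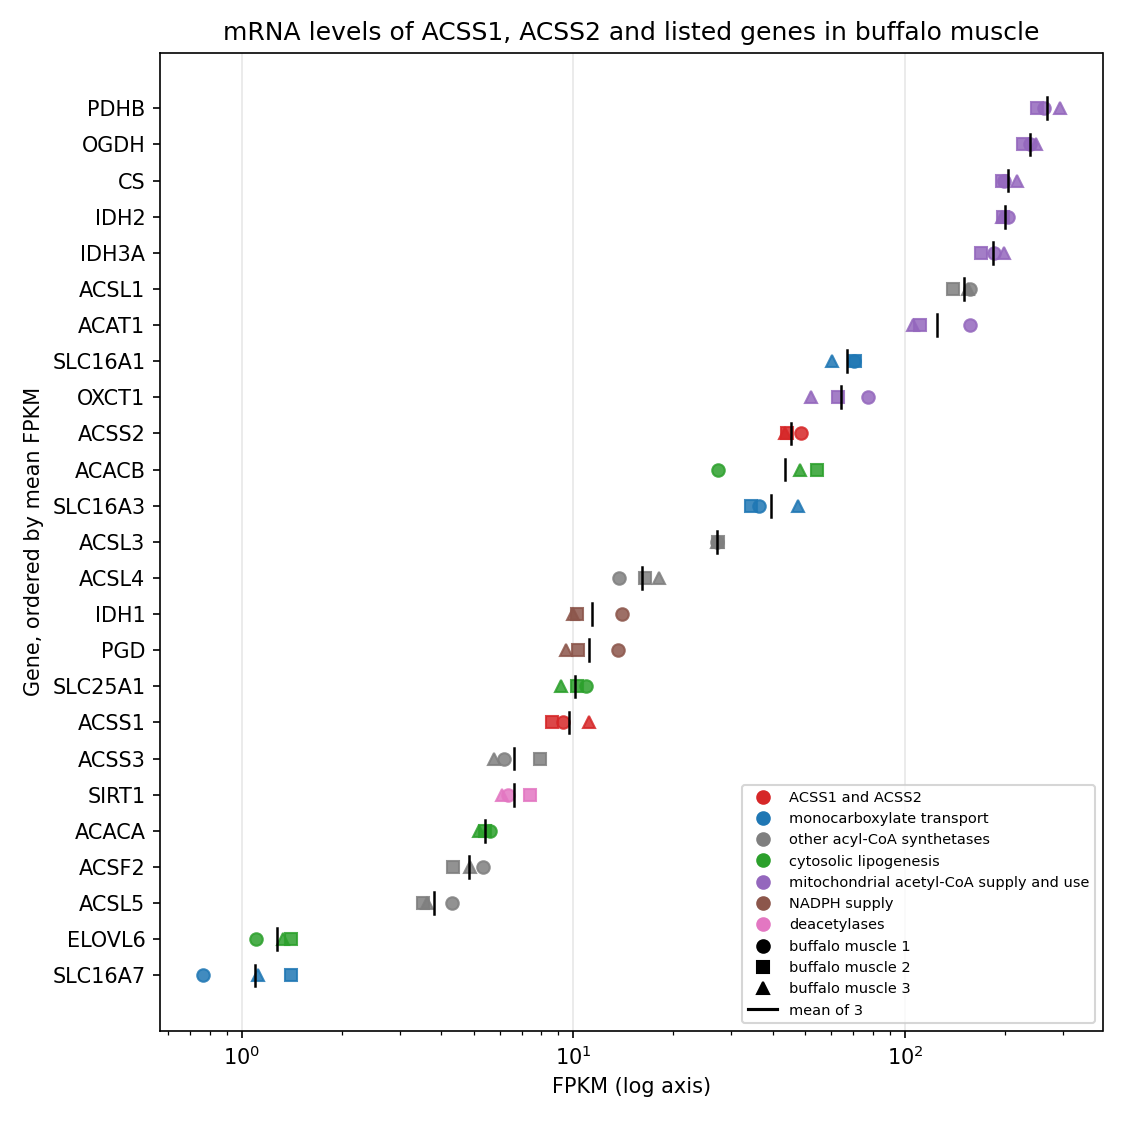
FPKM of ACSS1, ACSS2 and the 23 listed genes with a named transcript in the 3 buffalo muscle libraries (log axis, one symbol per animal, vertical bar for the mean of 3, colour for the list). ACSS2 (43.4 to 48.6 FPKM) lies beneath the mitochondrial genes and beside ACACB and SLC16A3, and ACSS1 (8.65 to 11.1 FPKM) beside SLC25A1, PGD and IDH1.

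Circular RNAs, which are counted by reads across a back-splice junction, were rare for both members. Values in the circRNA tables are RPM, junction reads scaled to the size of the library, and whole reads could be recovered from the step that 1 read makes. Of the 4 circRNA rows that name ACSS1 or ACSS2, 3 had a read in the libraries used, and each of these in 1 library only. In buffalo muscle, neither gene had a junction read in any of the 3 libraries, which hold 4472 to 6122 junction reads each. A count of 0 over the 3 libraries allows up to 0.0158 RPM (3 reads of the summed library totals), a limit that covers counting error only.

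The ACSS2 circRNAs were exonic and on the plus strand. One of them (chr13:64827474-64833562 of UMD3.1) had 1 read, in cattle adipose 1. The other (chr13:64833425-64835903) had 2 reads, in cattle muscle 2. Both rows have positions 64833425 to 64833562 in common, where the first junction ends and the second begins.

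Summed over its junctions, ACSS2 had 0, 0.0473 and 0 RPM in cattle muscle 1 to 3 and 0.0271, 0 and 0 RPM in cattle adipose 1 to 3. The means were 0.0158 ± 0.0273 (SD, n = 3) and 0.00905 ± 0.0157 RPM (SD, n = 3). The exact 95% Poisson intervals over each group's reads, 0.00209 to 0.0624 and 0.000224 to 0.0494 RPM, cover counting error only and treat reads of 1 library as independent. With reads in 1 of 3 libraries of each tissue, a difference between muscle and fat was not detectable for ACSS2 at this depth.

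For ACSS1, an exonic junction on the minus strand (chr13:43038287-43039529) is listed in the buffalo table and stood at 0 in the 3 muscle libraries. In the cattle table, 1 intronic junction (chr13:43043467-43043831) is assigned to both ENTPD6 and ACSS1, and its 2 reads came from cattle adipose 3. The labels name a library kit that does not mark strand, and the 2 reads cannot be given to one of these genes from the table. Counted for ACSS1, they come to 0.0172 ± 0.0297 RPM (SD, n = 3) in cattle adipose tissue, and without them ACSS1 has no junction read in any cattle library. Both readings leave ACSS1 circRNA in cattle muscle at 0 reads, which allows up to 0.0259 RPM over the group.

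The junction reads were then set beside the mRNA levels. In buffalo muscle, 1282 transcripts had a mean FPKM within 1.5 times that of ACSS2, and 312 of them (24.3%) were named as host of at least 1 junction with a read in the same libraries. Around ACSS1 the share was 694 of 2969 (23.4%). Both shares are of all listed transcripts, with or without a name, and so are lower than among named transcripts alone. Having no junction read was thus the more frequent state for listed transcripts at the level of either member.

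ACSS3 differed from both in junction reads. Its mRNA was below that of ACSS1 in buffalo muscle, but its circRNAs had 3, 4 and 0 reads there. In cattle it had 25, 39 and 32 reads in muscle and 19, 43 and 33 in fat, against 3 reads of ACSS2 over all 6 libraries. In the cattle table, 1.31% of 4721 host genes had more reads than ACSS3, and 63.9% had more than ACSS2. The muscle minus adipose difference of ACSS3 on the log2(RPM + 0.1) scale was 0.03 (SE 0.42), with an adjusted p of 0.981 by limma.

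**Figure D3:**
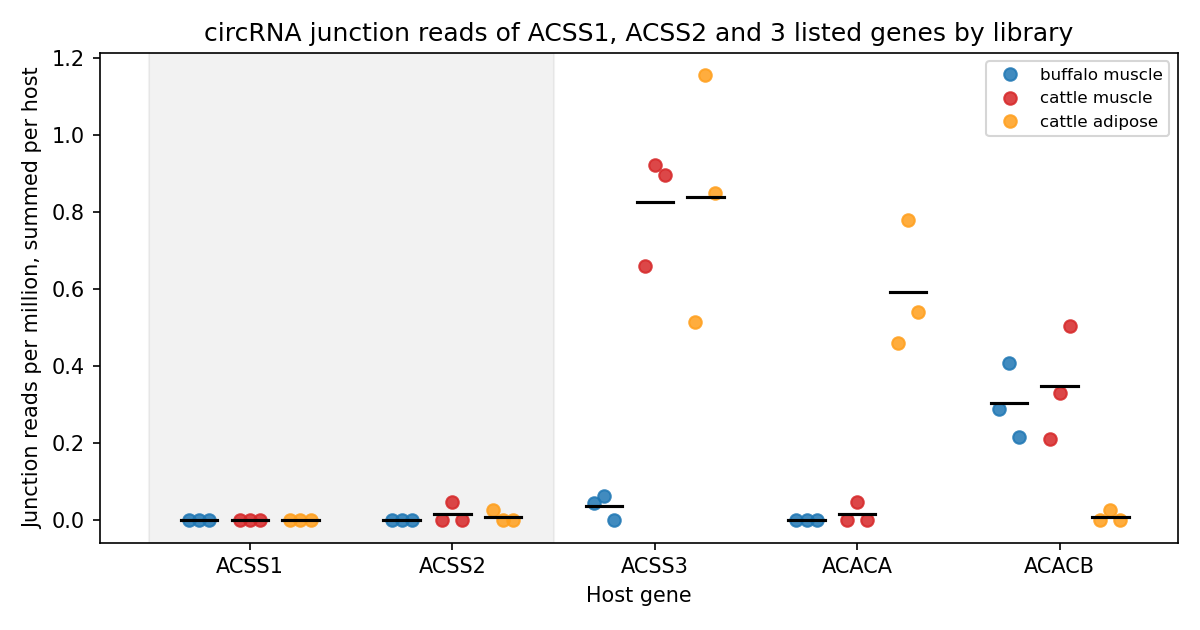
RPM of junction reads summed per host gene in each library (points) with group means (bars), for ACSS1 and ACSS2 (shaded) and for ACSS3, ACACA and ACACB. Junctions assigned to more than 1 gene are left out, and the buffalo and cattle tables were normalised separately. ACSS1 stands at 0 in all libraries and ACSS2 at 0.0473 RPM at most, while ACSS3 reaches 43 reads in 1 cattle library.

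Host genes were compared between cattle muscle and cattle fat with limma. The test took hosts with at least 2 reads in at least 3 of the 6 libraries, and neither ACSS1 nor ACSS2 met this filter. Of 1830 hosts tested, 126 passed at a Benjamini-Hochberg adjusted p of 0.05 (6.89%), with 96 higher in muscle (5.25%) and 30 higher in fat (1.64%). This count was 79, 73 and 54 without cattle muscle 1, 2 and 3, respectively. Of the 37 pathway genes, 7 were tested and 3 passed, 2 higher in muscle and 1 higher in fat. ACACB entered the test only through the muscle libraries, where it is high. The lists were chosen with earlier results of these data known, so this share cannot be read against that of all hosts. With a pseudocount of 1 the count over all hosts was 70, and 1 of the 3 pathway hosts, OGDH, no longer passed. ACACB was then close to the threshold, with an adjusted p of 0.0493 by limma. Tested per junction, 123 of 1917 junctions passed (6.42%), with 5.53% of those tested higher in muscle and 0.887% higher in fat, and no junction of ACSS1 or ACSS2 met the filter. This count was 46, 25 and 30 without cattle muscle 1, 2 and 3, respectively. The junctions higher in fat fell from 17 to 4, 3 and 5 in these fits and to 8 without cattle adipose 3. With a pseudocount of 1, 62 junctions passed (59 higher in muscle, 3 in fat). A block on the replicate number gave 203 (166 and 37), and edgeR with TMM called 26 higher in fat. For hosts, the median muscle minus adipose difference was 0.25 over the 7 pathway hosts tested and 0.02 over all 1830 hosts.

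The acetyl-CoA carboxylases, which act on the product of ACSS2, were both among the 3 pathway hosts that passed. ACACA had 0, 2 and 0 junction reads in cattle muscle and 17, 29 and 21 in fat, a log2 difference of -2.58 (SE 0.41, limma adjusted p = 0.000155). ACACB had 8, 14 and 18 reads in muscle and 0, 1 and 0 in fat, a difference of 2.00 (SE 0.41, limma adjusted p = 0.00265). It met the filter only through the muscle libraries, where it is high, and with no filter its adjusted p by limma was 0.0142. The differences of ACACA and ACACB were in opposite directions. The sizes rest on the pseudocount and tool, at -0.65 and 0.41 with a pseudocount of 1 and -4.85 and 4.89 with edgeR and TMM for ACACA and ACACB, respectively. From the summed reads, the ratio was 34.4 (95% counting interval 9.15 to 290) in favour of fat for ACACA and 39.0 (6.61 to 1578) in favour of muscle for ACACB. These intervals cover counting error only, treat reads of 1 library as independent and leave out the spread between animals. OGDH was the third, with 8, 23 and 13 reads in muscle and 4, 0 and 1 in fat, a difference of 1.72 (SE 0.43, limma adjusted p = 0.0137), which did not pass without cattle muscle 2 (adjusted p = 0.0783). Nor did OGDH pass with a pseudocount of 1, without a filter or with DESeq2 (adjusted p = 0.0903, 0.0667 and 0.0522), with differences of 0.39, 1.72 and 2.89. circRNA reads are no measure of the mRNA of their host, and the cattle mRNA of ACSS1 and ACSS2 was not analysed here.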

How the data were processed

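The deposited buffalo mRNA table holds FPKM per transcript and library, which the authors obtained with Cuffdiff. Before that step they had used Trim Galore on the reads, STAR against UMD3.1 (a cattle build, for buffalo reads too) and Cufflinks 2.2.1. The deposited circRNA tables hold RPM per back-splice junction, and their caller is not given in the sources used here. All values above 0 were whole multiples of 1 step per library (100% within 0.01 reads). Recovered reads numbered 4472 to 6122 in buffalo muscle, 15440 to 27141 in cattle muscle and 12042 to 21053 in cattle adipose libraries.

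The 9 buffalo adipose columns belong to another series and were not used. The lncRNA table, which gives no positions, was not used, so lncRNAs within 100 kb of either gene could not be sought. Transcripts were named through the circRNA tables and the identifier columns of the study's lists (7211 of 19917). Those lists hold the mRNAs that differed between buffalo and cattle muscle, so the named transcripts are a selected part. Only identifiers were taken from those lists. Genes without a name there have no value here.

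FPKM were analysed as log2(FPKM + 1), and the members were compared by an exact sign-flip permutation test. RPM were summed per host and, as log2(RPM + 0.1), fitted with limma 3.58.1 over cattle muscle and adipose libraries. The fit was also run per junction. edgeR 4.0.16 and DESeq2 1.42.0 on recovered reads, pseudocounts, filters, a replicate block and each library left out were alternatives. The libraries of a group are given as samples of 3 animals. The genes named are the members, their circRNAs and the fixed pathway lists, of which 2 genes are not reported here. The members and lists were chosen with earlier results of these data known. Genes similar to a member were sought only for members with at least 10 junction reads, which neither had.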

Additional observations from a re-analysis of the deposited data

How the results depend on the processing

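The ACSS2 minus ACSS1 difference in buffalo muscle kept its direction in all alternatives, at 2.22 with a pseudocount of 0.1, 2.12 with equal FPKM sums, and 2.05 to 2.25 with 1 animal left out. Without the pairing by library the exact permutation test gave p = 0.1, the smallest for 3 against 3. Among transcripts of at least 1 FPKM, the share below ACSS1 was 53.0% and that below ACSS2 86.6%, because fewer transcripts are counted, and with 1 animal left out the shares were 68.8% to 71.2% and 91.4% to 91.6%. For member circRNAs, counting only junctions of at least 2 libraries left 0 RPM in each group.

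With a pseudocount of 1, limma called 70 hosts (54 higher in muscle, 16 in fat) and 62 junctions, against 123 of 1917 junctions with 0.1 (6.42%). Of the 62, 59 were higher in muscle and 3 in fat, and the cause was not tested. With 1 library left out, calls ranged from 54 to 138 hosts (38 to 118 in muscle, 16 to 28 in fat) and from 25 to 142 junctions (22 to 130 in muscle, 3 to 15 in fat). The replicate block gave 152 hosts and 203 junctions (166 in muscle, 37 in fat). Deviations of same-numbered muscle and fat libraries correlated at 0.08, 0.07 and 0.01, and the labels do not tie a number to an animal, so the numbers were not taken as pairs, although each library correlated best with its own number. edgeR with TMM called 26 junctions higher in fat, against 17. Among pathway hosts, ACSL3 passed with edgeR and TMM only (adjusted p = 0.0421). ACACB could not be tested with any cattle muscle library left out, since too few libraries then met the filter.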
